A study of Mus musculus with 8 samples.

Results

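Intermediate filaments are rope-like cytoskeletal polymers whose subunits differ between cell lineages. A set of 10 such genes was followed in mouse embryonic stem cells (ESC) and in their retinoic acid-differentiated progeny (RA-DIFF). They are the neurofilament genes Nefl, Nefm and Nefh, the neuronal filament genes Ina and Prph, the neural progenitor gene Nes, the astrocyte gene Gfap, the muscle gene Des and the simple epithelial keratin genes Krt8 and Krt18. The 10 members were taken by gene symbol from the 32567 genes of the RNA-seq table, and all 10 were found. All 10 were also among the 15492 genes whose log2 CPM (read count scaled by library size), averaged over the libraries, was above 0.

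The 4 RNA-seq libraries came from wild-type ESC, ESC of a line homozygous for the huntingtin-null allele Hdh ex4/5 (Htt-null), and the RA-DIFF cells of each line, with 1 library per condition. After removal of feeder cells, the ESC were grown as embryoid bodies for 8 days, with 5 µM retinoic acid from day 4. The dissociated cells were collected 2 h after plating on laminin. Each genotype is therefore represented by a cell line in a single culture, no difference below has a replicate check, and intervals cover counting error only.

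Filament subunits are generally expressed in sequence as a cell matures. Keratins 8 and 18, which polymerise together, mark simple epithelia. Nestin, which assembles together with vimentin, marks dividing neural progenitors. Alpha-internexin (Ina) appears in young neurons, and the light, medium and heavy neurofilament chains (Nefl, Nefm, Nefh) form the mature axonal filament, with the heavy chain usually the latest. Peripherin (Prph) is typical of peripheral and motor neurons, glial fibrillary acidic protein (Gfap) of astrocytes and desmin (Des) of muscle.

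The libraries held between 63617410 and 110569127 counts. The stage labels were matched by their marker genes, since the 11 pluripotency genes summed to 6158 and 5320 CPM in wild-type and Htt-null ESC and to 67.0 and 17.6 CPM in the WT- and null-labelled RA-DIFF libraries, and all 11 fell in each line. The genotype labels were checked on Htt itself. Htt had 166 CPM in wild-type and 111.3 CPM in Htt-null ESC, so reads on the gene remain in the null line, but in RA-DIFF it had 73.3 CPM in the WT-labelled library and 98.7 CPM in the null-labelled library. Htt thus went against the RA-DIFF labels, and the published per-gene table of the study gives the RA-DIFF columns under the opposite genotypes. The RA-DIFF libraries and cells are therefore called WT-labelled and null-labelled throughout. With the labels exchanged, the RA-DIFF differences between genotypes given below would be as large but of opposite direction.

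With differentiation the 10 genes split evenly. A gene was called when its log2 ratio of TMM-scaled CPM was above 0.75 or below -0.75, a fold limit without a test. Nes, Nefm, Gfap, Nefl and Ina rose and Nefh, Prph, Des, Krt18 and Krt8 fell in WT-labelled cells, and the same 5 rose and the same 5 fell in null-labelled cells. Among all 15492 genes, 33.9% were called higher and 26.1% lower in WT-labelled cells (60.1% in either direction), and 34.3% and 24.8% in null-labelled cells (59.2%). The comparison is in bulk RNA, where fewer cells of a type and less RNA per cell cannot be told apart.

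**Figure D1:**
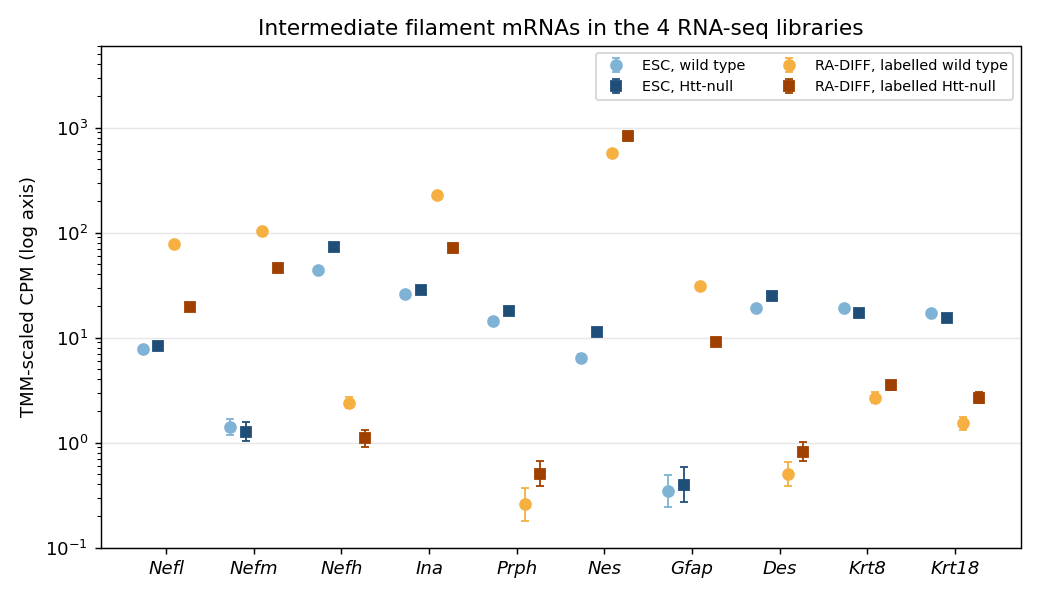
TMM-scaled CPM of each intermediate filament gene (logarithmic y axis) in the 4 libraries, 1 point per library, with Wilson 95% intervals for counting error. Nefl, Nefm, Ina, Nes and Gfap are higher in both RA-DIFF libraries than in both ESC libraries, and Nefh, Prph, Des, Krt8 and Krt18 are lower in both.

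Nes had the highest level of the 10 in RA-DIFF. It lies on chromosome 3 (GRCm38, 87971078 to 87980451, plus strand). It was measured at 6.37 CPM in wild-type ESC and 11.2 CPM in Htt-null ESC. In RA-DIFF it had 578 CPM in the WT-labelled library and 833 CPM in the null-labelled library. The 2 stages lay far apart, with a 90.8-fold rise (log2 6.50, 95% interval 6.38 to 6.63) in WT-labelled cells and a 74.3-fold rise (log2 6.21, 6.11 to 6.32) in null-labelled cells. Exchanged labels would give log2 rises of 7.03 over wild-type and 5.69 over Htt-null ESC. Vim, the partner of nestin, was already present in ESC at 80.9 and 77.9 CPM and reached 1712 and 2906 CPM in the WT- and null-labelled RA-DIFF libraries. Per kb of exon, Nes was 0.0582 and 0.106 of Vim in wild-type and Htt-null ESC and 0.25 and 0.212 of Vim in RA-DIFF.

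Gfap, on chromosome 11 (102887336 to 102900912, minus strand), was near the lower end of the measurable range in ESC. It had 30 reads (0.346 CPM) in wild-type and 26 reads (0.399 CPM) in Htt-null ESC, 30.9 CPM in the WT-labelled RA-DIFF library and 9.02 CPM in the null-labelled library. The rise was 89.4-fold (log2 6.39) and 22.6-fold (log2 4.43) in the respective cells. With the RA-DIFF labels exchanged, the log2 rise over wild-type ESC would be 4.62 and that over Htt-null ESC 6.20. Of the 8 other astrocyte genes, 7 passed the expression limit and all 7 rose in each line, with medians of 4.48 and 5.49 on the log2 scale, among them the glial transcription factor gene Sox9 (8.62 and 8.84). The glutamate transporter gene Slc1a2 had 21 and 3 reads in wild-type and Htt-null ESC and 16508 and 5140 reads in RA-DIFF. The water channel gene Aqp4 had 1 read in wild-type ESC and none in Htt-null ESC, and 7.48 and 7.13 CPM in RA-DIFF.

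The neuronal subunits did not move as a block. Nefl and Nefm are neighbours on chromosome 14 and lie on opposite strands, Nefl from 68083863 to 68089095 (plus) and Nefm from 68082590 to 68124846 (minus). Nefm had 1.41 CPM in wild-type ESC, 1.27 CPM in Htt-null ESC, and 103 and 46.5 CPM in the WT- and null-labelled RA-DIFF libraries. It therefore rose 73.0-fold and 36.5-fold. Nefl had 7.71, 8.39, 78.3 and 19.5 CPM in the same order and rose 10.1-fold and 2.33-fold. Ina, on chromosome 19 (47014698 to 47025327, plus strand), had the highest level per kb of the neuronal genes in RA-DIFF. It had 26.2 and 28.7 CPM in ESC and 230 and 71.3 CPM in RA-DIFF, which is a rise of 8.80-fold and 2.49-fold. The 3 genes were thus detectable in ESC, at unequal levels, and the larger rise was in WT-labelled cells for each, whereas exchanged labels would give log2 rises over wild-type and Htt-null ESC of 1.34 and 3.22 for Nefl, 5.02 and 6.31 for Nefm and 1.45 and 3.00 for Ina. The rise of Nefl in null-labelled cells was not called by edgeR's exact test at an assumed dispersion of 0.1, which is part of the study's own rule.

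Annotated exons of Nefm and Nefl overlap on opposite strands. The shared stretch has 1108 exonic bases, or 32.8% of Nefl and 19.2% of Nefm. The libraries are strand-specific, and the methods name no strand setting for the counting, saying only that unnamed options were left at their defaults. If strand was not used, the reads of this stretch cannot be told apart. If no read of the stretch was counted, the level of Nefl over its other 2272 exonic bases would be 3.40 and 34.5 CPM per kb in place of 2.28 and 23.2 CPM per kb in wild-type ESC and the WT-labelled RA-DIFF library, and 8.59 in place of 5.77 in the null-labelled library. Nefm over its other 4674 exonic bases would then be at 9.94 CPM per kb in the null-labelled library, with 0.864 Nefl per Nefm. Ina shares 456 exonic bases (14.1%) with Nt5c2, also on the opposite strand.

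Nefh went the opposite way from its partner chains. This gene, on chromosome 11 (4938754 to 4948064, minus strand), had 43.8 CPM in wild-type ESC and 73.7 CPM in Htt-null ESC, against 2.39 CPM in the WT-labelled RA-DIFF library and 1.10 CPM in the null-labelled library. It fell by 4.18 (95% interval -4.38 to -4.02) and by 6.04 (-6.36 to -5.79) on the log2 scale, and with the labels exchanged the log2 ratios would be -5.29 and -4.93. Per kb of exon, the heavy chain mRNA stood at 4.81 and 7.44 times Nefl in wild-type and Htt-null ESC and at 0.0259 and 0.0476 of Nefl in RA-DIFF. Against Nefm the ratio per kb turned from 45.1 and 83.8 in ESC to 0.0337 and 0.0342 in RA-DIFF. Nefl stood at 9.38 and 11.3 times Nefm in ESC and at 1.3 times Nefm in the WT-labelled RA-DIFF library, and it was below Nefm, at a ratio of 0.718, in the null-labelled library. Ina per Nefl varied least, between 3.07 and 3.81 over the 4 libraries.

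Prph, which lies on chromosome 15 (99055174 to 99058978, plus strand), was an ESC transcript in these data. It had 14.5 and 18.1 CPM in wild-type and Htt-null ESC and 29 reads (0.259 CPM) and 50 reads (0.508 CPM) in the WT- and null-labelled RA-DIFF libraries. Expressed as folds, it was 56.0 and 35.6 times higher in ESC (log2 ratios -5.69 and -5.09), and with the labels exchanged the log2 ratios over wild-type and Htt-null ESC would be -4.78 and -6.01. Genes of peripheral, hindbrain and motor neurons were mixed. Of 10 such genes, 5 passed the expression limit, and 4 rose and 1 fell in WT-labelled cells, while 2 rose and 3 fell in null-labelled cells. Isl1, a motor and sensory neuron factor, rose by 1.66 and 3.16 on the log2 scale.

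Des, on chromosome 1 (75360329 to 75368579, plus strand), behaved much like Prph. It had 19.3 and 24.8 CPM in wild-type and Htt-null ESC, and 0.50 and 0.823 CPM in RA-DIFF, so that ESC were 38.6 and 30.2 times higher (log2 ratios -5.21 and -4.88, or -4.52 and -5.57 with the labels exchanged). Muscle genes were mixed. Of 15, 8 passed the expression limit, with 4 rising and 4 falling in WT-labelled cells and 5 rising and 3 falling in null-labelled cells. The skeletal actin gene Acta1 had 4 and 0 reads in wild-type and Htt-null ESC and 321 and 258 reads in RA-DIFF, and the atrial myosin light chain gene Myl7 fell by 4.25 and by 5.19 on the log2 scale. The skeletal muscle determinants were near the detection limit, with at most 15 reads for Myod1 and at most 26 for Myog in any library.

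Nes had the highest level of the 10 per kb in RA-DIFF, and Prph and Des fell with nearly the same pattern. The sequences just before the starts of Nes, Prph and Des are shown here to place them beside the values. They are RefSeq promoters on GRCm38.p6, 120 bases each up to the base before the RefSeq start, 5′ to 3′ on the gene's strand, at chr3:87970973-87971092 (plus), chr15:99055054-99055173 (plus) and chr1:75360172-75360291 (plus), with capitals for a TATA box (TATAAA) or a GC box (GGGCGG) on either strand. The RefSeq start is the gene start given above for Prph, but lies inside the gene as given above for Nes and before it for Des.
Nes: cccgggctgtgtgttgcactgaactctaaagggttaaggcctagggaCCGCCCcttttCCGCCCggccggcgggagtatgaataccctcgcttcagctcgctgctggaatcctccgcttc
Prph: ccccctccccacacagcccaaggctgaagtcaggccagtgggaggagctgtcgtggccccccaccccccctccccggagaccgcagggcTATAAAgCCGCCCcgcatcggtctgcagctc
Des: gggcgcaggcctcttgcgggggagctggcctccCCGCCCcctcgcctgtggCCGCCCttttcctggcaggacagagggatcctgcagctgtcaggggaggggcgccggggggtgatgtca
Within 250 bases before the start, the table held 7 of the 10 members, without Nefl, Nefm and Nefh. TATAAA was found in Prph alone, where it begins 31 bases before the start, and in 12.4% of all 32851 promoters. GGGCGG was found in Nes, Prph, Des and Ina and in 32.7% of all promoters, so members that rose and members that fell both carried it. The retinoid receptor half-site AGGTCA was found in Gfap, Krt8 and Krt18 and in 14% of all promoters, and CCAAT in none of the 7 and in 33.9% of all. Such matches describe letters and not binding.

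The keratin pair fell together. Krt8 (101996711 to 102004342, minus strand) and Krt18 (102028216 to 102032026, plus strand) lie 23.9 kb apart on chromosome 15. Krt8 had 19.2 and 17.2 CPM in wild-type and Htt-null ESC and 2.69 and 3.50 CPM in the WT- and null-labelled RA-DIFF libraries. Krt18 had 17.3, 15.3, 1.53 and 2.69 CPM in the same order. The ESC levels were thus 7.13 and 4.9 times higher for Krt8 and 11.3 and 5.68 times higher for Krt18. The log2 ratios were -2.82 and -2.28 for Krt8 and -3.48 and -2.50 for Krt18, and with exchanged labels they would be -2.44 and -2.67 for Krt8 and -2.67 and -3.31 for Krt18. Per kb of exon there was 0.814 and 0.824 Krt8 per Krt18 in ESC, and 1.29 and 0.955 in RA-DIFF. For Krt8 and Krt18, alone among the 10, the annotation used for exon length gives other coordinates than those above. Their levels per kb depend on these lengths. The annotation holds a processed pseudogene of Krt8 on chromosome 7 that is not among the counted genes, so the reads of Krt8 can be affected by a near copy. Among 8 simple epithelial genes, 7 fell and none rose in WT-labelled cells, and 6 fell and none rose in null-labelled cells, and Epcam, an epithelial adhesion gene that ESC also express, fell by 5.34 and by 5.63 on the log2 scale. Of the trophoblast genes, another lineage with keratins 8 and 18, 3 of 7 passed the limit, and 2 and 3 of them fell. Genes of primitive and visceral endoderm, which also carries these keratins, differed, since of the 7 of 10 above the limit 1 rose and 2 fell in WT-labelled cells and 4 rose and 2 fell in null-labelled cells. Their summed level was 97.5 and 65.9 CPM in wild-type and Htt-null ESC and 123 and 222 CPM in the WT- and null-labelled RA-DIFF libraries. Most of it was the laminin gene Lama1, with 65.5, 45.6, 103 and 160 CPM in that order. The median log2 ratio with differentiation was -0.69 in WT-labelled and 0.93 in null-labelled cells.

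Pluripotency genes and the members that fell with differentiation still had reads in RA-DIFF. The summed pluripotency genes stood at 1.09% of the ESC level in the WT-labelled library and at 0.332% in the null-labelled library. Nefh stood at 5.46% and 1.49%, Prph at 1.79% and 2.81%, Des at 2.59% and 3.31%, Krt18 at 8.83% and 17.6% and Krt8 at 14% and 20.4% of their ESC levels. Nefh was thus the member that, like the pluripotency genes, had the higher remainder in the WT-labelled library, while the other 4 were higher in the null-labelled library. The parts of undifferentiated and of differentiated cells in these remainders were not tested.

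**Figure D2:**
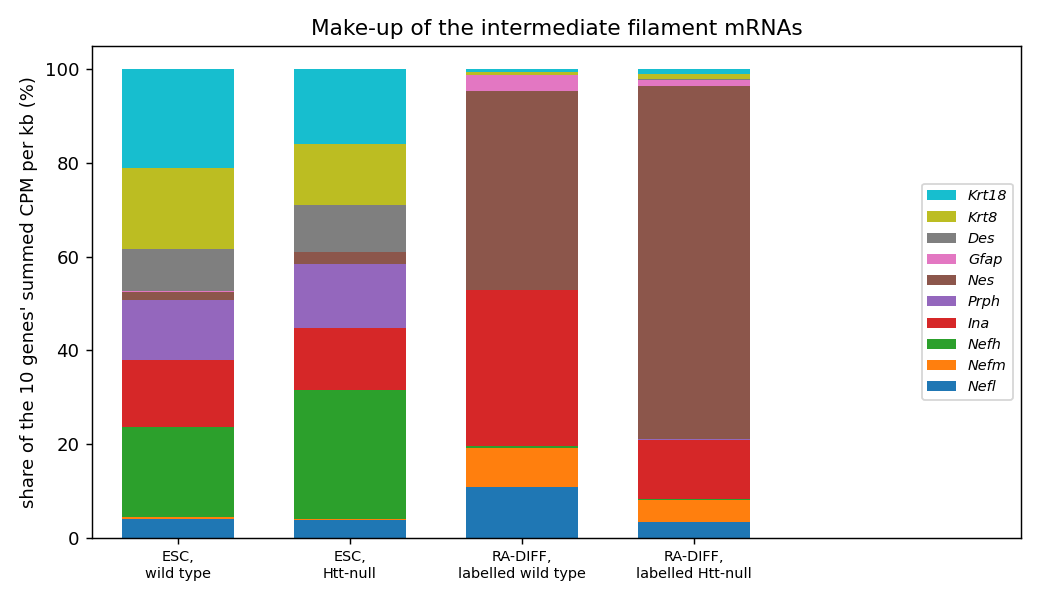
Share of each gene in the summed CPM per kb of exon of the 10 intermediate filament genes, as stacked bars for the 4 libraries (y axis in percent). Krt18, Nefh, Krt8, Ina and Prph make up most of the ESC bars, while Nes takes 42.4% and Ina 33.4% of the RA-DIFF WT-labelled bar, and Nes 75.4% and Ina 12.8% of the null-labelled bar.

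Compared per kb of exon, the make-up of the 10 genes' mRNAs changed from a mixture to a set led by Nes. Vim, which is outside the 10, had 17.1 and 16.4 CPM per kb in wild-type and Htt-null ESC. In the WT- and null-labelled RA-DIFF libraries Vim had 361 and 613 CPM per kb, above the 10 together. The 10 genes summed to 56.8 and 66.9 CPM per kb in wild-type and Htt-null ESC and to 213 and 172 CPM per kb in RA-DIFF. In wild-type ESC the order of these levels was Krt18 (12.0 CPM per kb), Nefh (11.0), Krt8 (9.79), Ina (8.07) and Prph (7.25). Then came Des (5.14), Nefl (2.28), Nes (0.992), Nefm (0.243) and Gfap (0.0820). Nefh was first in Htt-null ESC at 18.4 CPM per kb, followed by Krt18 (10.6) and Prph (9.03). In the WT-labelled RA-DIFF library the first 4 were Nes (90.1), Ina (71.0), Nefl (23.2) and Nefm (17.8), and Prph was last at 0.129. In the null-labelled library Nes (130), Ina (22.0), Nefm (8.04) and Nefl (5.77) came first and Des last at 0.219. Prph, Ina and Krt8 in Htt-null ESC (9.03, 8.85 and 8.76) differed by little. So did Krt18 and Krt8 in the null-labelled RA-DIFF library (1.87 and 1.79). With 1 library the order of such genes has no replicate check.

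In ESC the genotypes differed little for most of the 10 genes. Nes alone was called, with 11.2 CPM in Htt-null against 6.37 CPM in wild-type ESC (log2 ratio 0.81, 95% interval 0.65 to 0.98). Of all genes, 5.14% were called higher and 8.61% in either direction. The call of Nes ended at a log2 limit of 1 or with an exact test at a dispersion of 0.1. Nefh lay just under the limit at 0.749 and was called when libraries were scaled by their totals alone. The other 8 log2 ratios lay between -0.18 for Krt18 and 0.36 for Des, and no member was called lower, against 3.47% of all genes. For Nefl, Nefm and Gfap the counting interval of the ratio included 0.

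**Figure D3:**
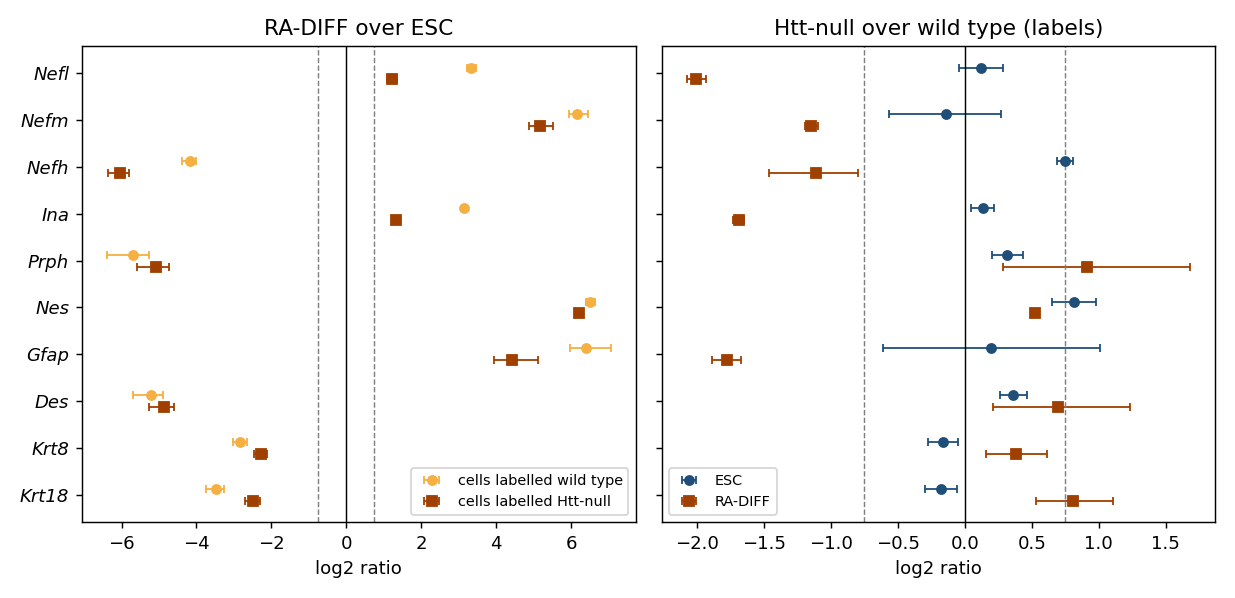
Log2 ratios of the 10 genes for RA-DIFF over ESC in each line (left) and for Htt-null over wild type at each stage (right), in RA-DIFF by the deposited labels that Htt goes against, with exact binomial 95% intervals for counting error and dashed lines at the limit of 0.75. The left panel shows 5 genes on each side of 0 in both lines, and the right panel shows Nefl, Nefm, Nefh, Ina and Gfap at or below -1.11 in RA-DIFF only.

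In RA-DIFF the neurofilament genes, Ina and Gfap were lower in the null-labelled library. The log2 ratio to the WT-labelled library was -2.0 for Nefl (1922 against 8773 reads), -1.78 for Gfap (888 against 3465), -1.69 for Ina (7025 against 25782), -1.14 for Nefm (4577 against 11515) and -1.11 for Nefh (108 against 268). These 5 of 10 were called lower, while 8.99% of all genes were. Prph (log2 ratio 0.92, 95% interval 0.28 to 1.69, on 50 and 29 reads) and Krt18 (0.81, 0.54 to 1.10) were called higher, as were 11.7% of all genes (20.7% in either direction). Des (0.69), Nes (0.53) and Krt8 (0.38) were not called. With a log2 limit of 1 neither Prph nor Krt18 was called, and an exact test at a dispersion of 0.1 left 3 called lower, which were Nefl, Ina and Gfap. The stages were compared without a test, and the log2 ratio of the genotypes was lower in RA-DIFF than in ESC by 2.12 for Nefl, 1.97 for Gfap, 1.86 for Nefh, 1.82 for Ina and 1.00 for Nefm. With the RA-DIFF labels exchanged it would be higher in RA-DIFF, by 1.88 for Nefl, 1.58 for Gfap, 0.36 for Nefh, 1.56 for Ina and 1.29 for Nefm, so neither the direction nor the order is independent of the labels.

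The marker lists of the same lineages are given beside these values. Of 12 neuron genes, 9 were called lower and none higher in the null-labelled RA-DIFF library (median log2 ratio -1.25). Their summed level was 3071 CPM in the WT-labelled library and 1446 CPM in the null-labelled library, and the neuronal nuclear gene Rbfox3 (-1.82), the tubulin gene Tubb3 (-1.69) and the tau gene Mapt (-1.63) were the lowest. Nefl lay below all 12 of them, and Nefm and Nefh were closer to 0 than the median. Of the 9 neural progenitor genes, 1 was higher and 3 lower (median -0.01), at 2477 and 2351 CPM in all. The 7 astrocyte genes above the limit had a median of 0.52 with 3 higher and 1 lower, so that Gfap and the glutamate transporter gene Slc1a2 (-1.5) differed from Slc1a3 (1.17), Aldh1l1 (1.14) and Gja1 (1.13). The part of differing cell numbers in the values of Nefl, Ina and Gfap was not tested.

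Genes of connective tissue and contractile cells were higher in the same library. Of 13 fibroblast and mesenchyme genes, 12 were called higher and none lower, with a median of 1.78 and summed levels of 763 and 2347 CPM in the WT- and null-labelled libraries. Of the 8 muscle genes above the limit, 5 were higher and none lower, and smooth muscle actin Acta2 had 41 and 635 CPM. The median of the 8 was 1.02, and 3 of them were not called. Des, also not called, had 0.50 and 0.823 CPM (log2 ratio 0.69). The median over all 15492 genes was -0.01.

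**Figure D4:**
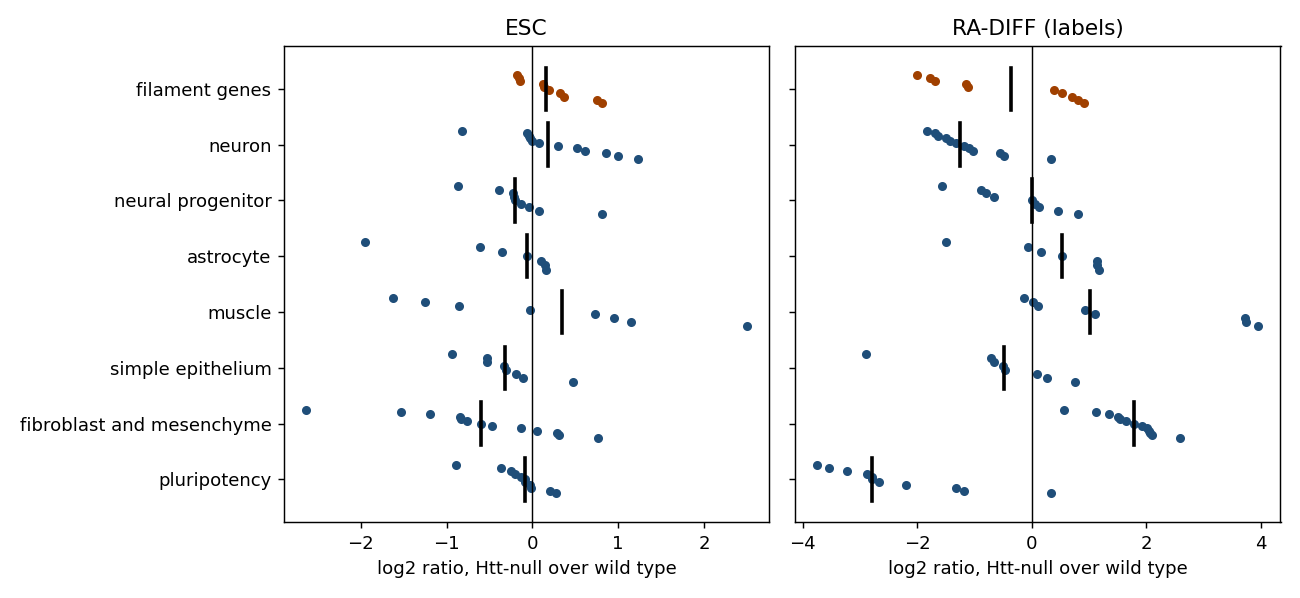
Log2 ratio between the genotypes (Htt-null relative to wild type) for each gene above the expression limit (points) in ESC and in RA-DIFF by the deposited labels, with 1 row per list and black bars at the medians. In RA-DIFF the neuron row centres on -1.25 and the fibroblast and mesenchyme row on 1.78, while the filament genes fall on both sides of 0.

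In ESC the median log2 ratios between genotypes were 0.19 for neuron, -0.20 for neural progenitor and -0.32 for simple epithelium genes. The neuron list held 3 genes called higher in Htt-null ESC, with Gap43 (1.23) and Tubb3 (0.998) the highest, and 1 called lower, Mapt (-0.82). No neuronal filament gene was called at this stage, though Nefh lay just under the limit at 0.749. Fibroblast genes had 6 called lower and 1 higher in Htt-null ESC.

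The other filament genes, a list of 22, held 13 above the expression limit. With differentiation 4 rose and 5 fell in WT-labelled cells and 5 rose and 2 fell in null-labelled cells, of which Vim rose by 4.40 and 5.22 on the log2 scale. The epithelial keratin genes Krt17 and Krt7 had log2 ratios of -6.55 and -3.51 in WT-labelled cells and of -6.51 and -2.30 in null-labelled cells. Between the RA-DIFF libraries, 2 were lower and 5 higher with the null label. The lamin A gene Lmna, a nuclear lamina component, had 17.4 and 61.2 CPM in the WT- and null-labelled libraries (log2 ratio 1.82). In ESC, 3 of these genes and no more were called, all lower in Htt-null, which were Krt17 (-1.58), Krt7 (-0.93) and Sync (-0.81).

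Linker and desmosome genes encode the proteins that anchor filaments. Of 12 such genes 11 were in the table and 10 passed the limit, and with differentiation 8 fell and none rose in WT-labelled cells, while 5 fell and 2 rose in null-labelled cells. The desmoglein gene Dsg2 fell by 5.65 and by 5.57 and the desmoplakin gene Dsp by 4.55 and by 2.96 on the log2 scale. Between the RA-DIFF libraries 5 were higher with the null label and none lower, led by the periplakin gene Ppl (2.83) and the desmocollin gene Dsc2 (2.53), and in ESC none was higher and 2 lower. All 5 neurofilament kinase and turnover genes rose in WT-labelled cells and 3 rose in null-labelled cells, with Cdk5r1, the activator of the neurofilament kinase Cdk5, rising by 5.20 and 4.07. The second activator Cdk5r2 was lower in the null-labelled RA-DIFF library by the log2 ratio of -2.04.

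The pattern over the 4 libraries was compared between genes by the root-mean-square difference of their centred log2 CPM, a description over 4 libraries. Among the members the closest pairs were Nefl and Ina (0.114), Prph and Des (0.191), Krt8 and Krt18 (0.265) and Nefm and Gfap (0.284). Nefl was far from Nefh (3.72) and Nefm farther (5.40). Among all genes the closest to Nefl were Eef1a2 (0.0621), an elongation factor of neurons and muscle, Ina (0.114) and Mylk4 (0.165), and the closest to Ina were Mylk4 (0.079), Eef1a2 (0.104) and Nefl. The closest to Nes was Wnt7a (0.121), followed by Mid2 (0.129), and the closest to Des was the germ cell helicase gene Ddx4 (0.0629). Krt8 was closest to Gnpda1 (0.0363) and Krt18 to the retinoic acid receptor gene Rarg (0.0389). Such closeness was common for the keratins, with 204 genes within 0.25 of Krt8 and 94 of Krt18, against 12 for Nefl, 10 for Nes and 8 for Gfap. Of the remaining members, Nefm was closest to Pappa (0.0779), Nefh to Adad2 (0.140), Prph to Tnfrsf1b (0.114) and Gfap to Apcdd1 (0.155).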

How the data were processed

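RNA-seq libraries of ESC and RA-DIFF cells were analysed, 1 per condition. The authors aligned 50 bp paired-end reads of strand-specific poly-A libraries to GRCm38.p4 with TopHat2 2.0.14, counted them on GENCODE genes with HTSeq 0.6.1 and deposited raw counts per gene without normalization (versions from the submitters' processing notes). All 4 count columns were used. The table of miRNA counts was not used.

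TMM factors over the 4 libraries, CPM, log2 CPM (prior count 2) and log2 ratios were computed with edgeR 4.0.16 in R 4.3.3. With 1 library per condition no dispersion can be estimated, so calls rest on no test and no p-value is given. Genes above an average log2 CPM of 0 were called past an absolute log2 ratio of 0.75. The study's methods use these limits together with a p-value limit of 0.05 from edgeR at an assumed dispersion of 0.1, which was run here as an alternative. The steps were tested on simulated data. Exon lengths are from GENCODE vM21 (32304 of 32567 genes matched), where the coordinates of Krt8 and Krt18 differ from the deposited ones. Intervals are at the 95% level, Wilson for CPM and exact binomial for ratios, and cover counting error only. A count of 0 allows 3 counts, or 0.0268 to 0.0460 CPM. Alternatives were scaling by library size or by DESeq2 1.42.0 size factors, other limits and prior counts, edgeR's exact test at assumed dispersions, and exchanged RA-DIFF labels. Named genes were the members, Htt, overlapping genes and pseudogenes of members, up to 4 genes per list and comparison with the largest ratios, and up to 3 nearest patterns. Myod1 and Myog fell outside this rule and were named after their values were seen. The members and lists were chosen with earlier results of these data known.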

Additional observations from a re-analysis of the deposited data

How the results depend on the processing

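Each condition has 1 library, so no library could be left out, and values rest on depth and on the assumed limits. No paired analysis was possible because the groups hold 1 library each and so share a single replicate number. All 10 members kept the direction of their differentiation change in both lines under every alternative tried. With exchanged RA-DIFF labels the calls reversed, to 2.0 for Nefl, 1.14 for Nefm, 1.11 for Nefh, 1.69 for Ina, 1.78 for Gfap, -0.92 for Prph and -0.81 for Krt18, so that 5 members were higher and 2 lower, and the rise of Nefl in WT-labelled cells became 1.34. With library size alone 2 members were higher in Htt-null ESC. A log2 limit of 1 left 0 members higher in ESC and 0 in RA-DIFF, and an exact test at a dispersion of 0.1 left 0 and 0 higher and 3 lower in RA-DIFF.

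Over all genes, the exact test at 0.1 gave 2673 and 2466 lower with differentiation in WT- and null-labelled cells, for Htt-null in ESC 152 higher and 100 lower, and in RA-DIFF 815 higher and 526 lower. The main counts were 4051, 3847, 797, 537, 1817 and 1393 in that order. Without an expression limit 10162 were higher and 8674 lower in WT-labelled cells, 9567 and 9945 in null-labelled cells, 5217 and 2943 in ESC, and 4204 and 4384 in RA-DIFF. With the limit at a log2 CPM of 2, 333 were higher and 275 lower in ESC and 848 lower in RA-DIFF. With a log2 limit of 1, 458 were higher and 286 lower in ESC and 897 lower in RA-DIFF. The fewer genes tested or the stricter limit lower these counts by construction.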
